A study of Mus musculus with 8 samples.

Results

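ISG15 is a small ubiquitin-like protein that cells attach to lysines of other proteins. It is attached through an enzyme cascade like that of ubiquitin, made of the activating enzyme (E1) UBA7, the conjugating enzyme (E2) UBE2L6 and a ligase (E3), which in mouse is mainly HERC6, and it is removed by the protease USP18. All of these genes are known as targets of interferon signalling, and USP18 also binds the type I interferon receptor subunit IFNAR2 and restrains signalling from it. TRIM25 is a ubiquitin ligase best known for acting on the RNA sensor RIG-I, and it has also been reported as a ligase for ISG15.

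The 6 genes of the ISG15 conjugation machinery described here are Isg15, Uba7, Ube2l6, Herc6, Trim25 and Usp18. They are 6 of 49315 genes in the count table, all 6 were found by symbol in the GENCODE M21 annotation, and all 6 were among the 13051 genes that passed the filter on low counts. The genes were chosen from earlier results of the same contrast, so their differences between the groups are given as a description with no test.

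RNA-Seq was performed on bone marrow-derived macrophages (BMDMs), cells grown from C57BL/6 mouse marrow with the growth factor M-CSF. The macrophages were transfected with Lipofectamine and either a gapmeR against MAARS (4 libraries, replicates 9, 11, 13 and 15) or negative control #1 gapmeR (4 libraries, replicates 2, 5, 6 and 7), both at 25 nM according to the labels. A gapmeR is a short antisense oligonucleotide that leads RNase H to cut its target RNA, and MAARS (annotated as Gm14461) is the macrophage long non-coding RNA that the study set out to silence. The labels do not say whether more than 1 MAARS sequence was used, there was no untransfected group, and nothing in the labels says that the cultures came from separate animals, so the p-values below measure the spread between these libraries. In bulk RNA, fewer cells of a type and less RNA per cell cannot be told apart.

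The control libraries held 19287279 to 20567123 counts and the MAARS gapmeR libraries 20839671 to 24541205. Levels are given as counts per 1000000 counts (CPM) after scaling by edgeR's TMM factors. MAARS itself was 13.1 ± 1.36 CPM with control gapmeR and 6.82 ± 0.84 with MAARS gapmeR (mean ± SD of 4 libraries), which is -0.95 in log2 with no overlap between groups (adjusted p = 5.8e-05, edgeR quasi-likelihood test). Of the 8 macrophage markers, Csf1r, Lyz2, Cd14, Itgam and Mertk were called higher, Fcgr1 and Cd68 lower, and Adgre1 was not called. Over all tested genes, 21.3% were called higher and 24.0% lower. Across 15 alternatives the log2 fold change was -2.25 to -1.98 for Fcgr1 and -0.36 to -0.27 for Cd68. It was 0.63 to 0.88 for Cd14, 0.42 to 0.57 for Lyz2 and 0.39 to 0.52 for Csf1r. Itgam (0.15 to 0.25) and Mertk (0.12 to 0.26) moved least. Gm49368, on the same strand, shares 68.7% of the exonic bases of Itgam. The call of Mertk was lost in 6 of 15 alternatives, among them leaving out any 1 of the control libraries. The summed level of the 8 markers was 13840 to 17120 CPM in the control libraries and 17010 to 20240 CPM in the MAARS gapmeR libraries. Markers of the other cell types that a marrow culture could hold were low or not called. Of 8 lymphocyte markers none passed the filter, Cd3g was at 0 in all libraries, and the sum was 0.204 to 0.540 CPM against 0.0946 to 0.279 CPM. Of 6 dendritic cell markers 1 (Zbtb46) was tested and 0 were called (1.02 to 2.60 CPM against 1.34 to 1.65 CPM). In 7 of 15 alternatives 1 of the other dendritic cell markers, not tested in the main fit, was called lower. Of 6 neutrophil markers 5 were tested and 0 called (39.3 to 116 CPM against 42.0 to 61.8 CPM), and of 6 stromal markers, which include collagens, 6 were tested and 0 called (440 to 1010 CPM against 694 to 1195 CPM). Without control replicate 5, 2 neutrophil and 2 stromal markers were called lower, and without control replicate 7, 2 stromal markers were called higher. The part of these cell types in the results below was not tested.

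The sequence just upstream of Isg15 is shown first because it carries the best known element of interferon-induced genes, the interferon-stimulated response element (ISRE), on which transcription factors activated by interferon act. RefSeq windows on GRCm38.p6, from 250 bases before to 50 bases after the start site, were matched for 5 of the 6 genes, the exception being Usp18. The ISRE core was searched as GAAANNGAAA on both strands. The Isg15 window, chr4:156200769-156201068 on the minus strand, held 3 overlapping matches at -78 to -69, -72 to -63 and -66 to -57 from the start site. They stand together in the following stretch of 60 bases, chr4:156200856-156200915 on the minus strand, printed 5′ to 3′ with the matches in capitals.
Isg15: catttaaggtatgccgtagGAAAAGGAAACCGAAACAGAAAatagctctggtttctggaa

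No window of the other 4 genes held the core, and 1131 of 32851 RefSeq windows did (3.44%). Allowing 1 mismatch, an alternative chosen after the windows had been seen, gave matches in 4 of the 5 windows, but 35.4% of all windows then held at least 1. The Uba7 window then held 3 matches, the Trim25 window 2, the Herc6 window 1 and the Ube2l6 window 0. The stretches around the start sites of Uba7 (chr9:107975530-107975589) and Trim25 (chr11:88999371-88999430), both on the plus strand, are shown because these matches lay closest to a start site. Capitals mark the matches with 1 mismatch on either strand.
Uba7: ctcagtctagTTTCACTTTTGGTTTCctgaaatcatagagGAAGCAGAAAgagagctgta
Trim25: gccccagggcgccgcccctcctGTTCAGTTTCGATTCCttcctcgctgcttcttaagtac

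The gamma-activated (GAS) element searched as TTCNNNGAA (8.30% of all windows) and the NF-kappaB element searched as GGGANNTTCC (1.47%) were found in 0 of the 5 windows. No match of these motifs was there to overlap an ISRE match. These matches describe letters in a window, and occupancy was not measured.

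All 6 genes were lower with MAARS gapmeR, by 1.37-fold for Trim25 to 10.9-fold for Isg15. The median log2 fold change of the 6 genes was -1.83, against 0.01 over all 13051 genes. By edgeR's adjusted p under 0.05, 6 of 6 were called lower and 0 higher, beside 24.0% of all tested genes called lower and 21.3% called higher. In 6 of 6 all MAARS gapmeR libraries were below all control libraries, as in 22.8% of all tested genes. Because the same contrast chose the genes, nothing is read from these counts. With upper-quartile factors or library size alone, 60.4% and 60.9% of the called genes were higher, against 47.0% with TMM.

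**Figure D1:**
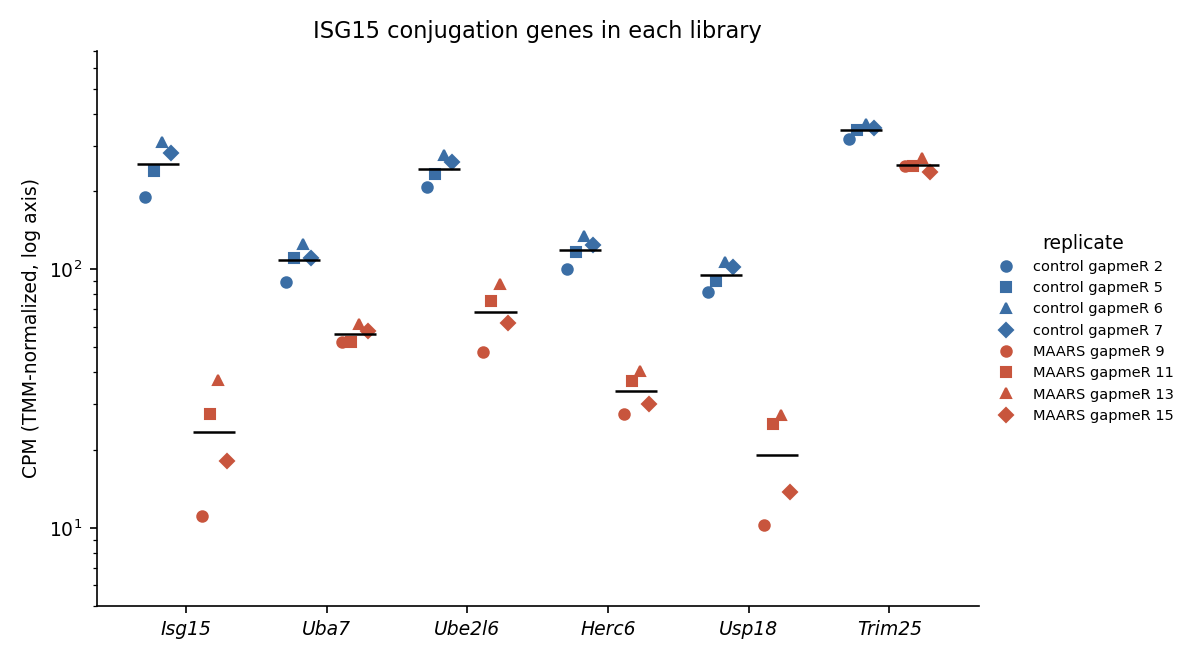
TMM-normalized CPM of the 6 genes (log axis) in each library, control gapmeR in blue and MAARS gapmeR in red, with the mean of 4 libraries as a black line. All 6 genes have every MAARS gapmeR library below every control library, as do 22.8% of all tested genes. The MAARS gapmeR libraries of Isg15 spread from 11.1 to 37.4 CPM.

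Isg15 (ENSMUSG00000035692), the modifier itself, is a gene of 2 exons at chr4:156199424-156200818 on the minus strand of GRCm38. Its level in control replicates 2, 5, 6 and 7 was 191, 240, 311 and 281 CPM, and in MAARS gapmeR replicates 9, 11, 13 and 15 it was 11.1, 27.7, 37.4 and 18.1 CPM. The groups did not overlap, and the lowest control library was 5.12-fold above the highest MAARS gapmeR library. The means were 256 ± 52.0 CPM and 23.5 ± 11.5 CPM (SD, n = 4 in each group). The log2 fold change was -3.44 (SE 0.29), which left 9.21% of the control level. Ranked by log2 fold change from the lowest, Isg15 was number 40 of the 13051 genes. Its transcript matches 482 bases of another annotated gene, AC151275.1, at 95.2% identity. AC151275.1 is not among the genes of the count table. How reads that map to both were counted is not given in the sources used here.

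Uba7 (ENSMUSG00000032596, chr9:107975505-107984060, plus strand, 22 exons) encodes the E1 that activates ISG15. Its level was 89.4, 111, 125 and 110 CPM in the control libraries and 52.5, 52.5, 61.4 and 57.6 CPM in the MAARS gapmeR libraries. All MAARS gapmeR libraries were below all control libraries, and they lay close to each other. The means were 109 ± 14.7 and 56.0 ± 4.35 CPM, a log2 fold change of -0.96 (SE 0.09), leaving 51.4%. A gene on the same strand, Gm20661, shares 3.48% of the exonic bases and had 0 to 4 counts per library.

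Ube2l6 (ENSMUSG00000027078, chr2:84798828-84810335, plus strand, 4 exons), also known as UbcH8, encodes the E2 that takes ISG15 from UBA7. It stood at 209, 234, 277 and 261 CPM with control gapmeR and at 48.0, 75.4, 87.4 and 61.8 CPM with MAARS gapmeR. The groups did not overlap, and replicate 9 was the lowest of all libraries. Mean levels of 245 ± 29.8 and 68.1 ± 17.0 CPM gave a log2 fold change of -1.85 (SE 0.16), leaving 27.8%. Stretches of its transcript resemble other transcripts (508 bases of Gm17167 at 95.1% identity, for example), and the counting of such reads is likewise not given.

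Herc6 (ENSMUSG00000029798, chr6:57581000-57664632, plus strand, 23 exons) encodes the ligase that carries out most ISG15 conjugation in mouse cells. Control libraries held 100, 116, 134 and 124 CPM and MAARS gapmeR libraries 27.5, 36.9, 40.4 and 30.03 CPM. Again the groups were apart, with replicate 9 lowest. The means of 119 ± 14.4 and 33.7 ± 5.98 CPM gave a log2 fold change of -1.81 (SE 0.12), leaving 28.4%. Gm45193 shares 13.7% of the exonic bases of Herc6 and had 0 counts in all libraries.

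Trim25 (ENSMUSG00000000275, chr11:88999376-89020293, plus strand, 9 exons) showed the smallest difference of the 6 genes. Its level was 318, 344, 364 and 353 CPM with control gapmeR and 250, 251, 269 and 238 CPM with MAARS gapmeR. The groups did not overlap, and the spread within each was small. The means were 345 ± 19.5 and 252 ± 12.9 CPM, a log2 fold change of -0.45 (SE 0.05), leaving 73.1% of the control level. By rank Trim25 was number 1352 of 13051 from the lowest, at the 10.4th percentile, where Isg15 stood at 0.306.

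Usp18 (ENSMUSG00000030107, chr6:121245906-121270917, plus strand, 11 exons) encodes the protease that removes ISG15. In the control libraries it was 82.0, 90.0, 107 and 102 CPM, and in the MAARS gapmeR libraries 10.2, 25.1, 27.2 and 13.7 CPM. The MAARS gapmeR libraries formed a lower pair (replicates 9 and 15) and a higher pair (replicates 11 and 13), all below the control range. On average it was at 95.2 ± 11.3 and 19.1 ± 8.36 CPM, a log2 fold change of -2.32 (SE 0.24), leaving 20.0%. On the opposite strand, Gm44148 overlaps 4.44% of the exonic bases with 0 to 5 counts per library.

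The size of the difference varied among the 6 genes. The modifier and its protease had the 2 lowest log2 fold changes (-3.44 and -2.32), the E2 and the main E3 were alike (-1.85 and -1.81, with standard errors of 0.16 and 0.12), and the E1 (-0.96) and Trim25 (-0.45) followed. No test was made between the genes.

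Compared per kilobase of merged exons, Isg15 was the most abundant of the 6 transcripts with control gapmeR, at 338 ± 68.8 CPM per kilobase. Ube2l6 followed at 123 ± 14.9, Trim25 at 59.9 ± 3.39, Usp18 at 34.1 ± 4.05, Uba7 at 16.3 ± 2.20 and Herc6 at 12.8 ± 1.55 CPM per kilobase. Each of these neighbours was apart from the next in all 4 libraries except Uba7 and Herc6, whose ranges overlapped. With the length of the longest transcript in place of merged exons, the order was the same, but the values were 157 for Ube2l6, 53.8 for Usp18, 30.09 for Uba7 and 24.9 CPM per kilobase for Herc6, and the ranges of Trim25 and Usp18 overlapped as well.

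With MAARS gapmeR the order began with Trim25 at 43.8 ± 2.25 CPM per kilobase, then Ube2l6 at 34.1 ± 8.53 and Isg15 at 31.1 ± 15.2. The ranges of Trim25 and Ube2l6 overlapped, as did those of Ube2l6 and Isg15. Below them stood Uba7 at 8.37 ± 0.65, Usp18 at 6.83 ± 2.99 and Herc6 at 3.63 ± 0.64, again with overlapping neighbours. Isg15 and Uba7 were the only neighbours apart, and with longest-transcript lengths no neighbours were.

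The make-up of the 6 transcripts differed accordingly. Per kilobase of merged exons, Isg15 was 57.6 ± 2.57% of the sum of the 6 genes in the control libraries (range 54.2 to 60.1%). In the MAARS gapmeR libraries its share was 23.2 ± 6.55% (range 15.2 to 30.3%). Trim25 went from 10.4 ± 1.17% to 35.4 ± 7.17%, by these lengths the largest share in MAARS gapmeR replicates 9, 11 and 15. In replicate 13 it was 28.7% beside 30.3% for Isg15. By longest-transcript lengths the Isg15 share was 50.5 ± 2.53% with control gapmeR and 19.4 ± 5.55% with MAARS gapmeR. Ube2l6 then reached 56.0 CPM per kilobase in MAARS gapmeR replicate 13, where Trim25 was at most 48.2. Which gene had the largest share with MAARS gapmeR thus depends on the length used. Ube2l6 was 21.1 ± 0.94% and 26.6 ± 1.15%, Uba7 2.80 ± 0.16% and 6.75 ± 1.31%, Herc6 2.20 ± 0.10% and 2.87 ± 0.16%. The share of Usp18 was 5.88 ± 0.30% and 5.15 ± 1.28%, with overlapping ranges. The ratio of Isg15 to Usp18, both per kilobase of merged exons, was 9.83 ± 0.91 with control gapmeR and 4.50 ± 0.54 with MAARS gapmeR, lower in every MAARS gapmeR library. With longest-transcript lengths it was 6.24 ± 0.58 and 2.85 ± 0.35, so its size depends on the length used. The ratio of Isg15 to Uba7 was 20.6 ± 1.87 and 3.67 ± 1.63, and that of Isg15 to Herc6 26.3 ± 2.32 and 8.23 ± 2.72. Scaled by library size alone, the 6 genes together summed to 1140 ± 128 CPM in the control group and 462 ± 56.4 CPM in the MAARS gapmeR group.

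**Figure D2:**
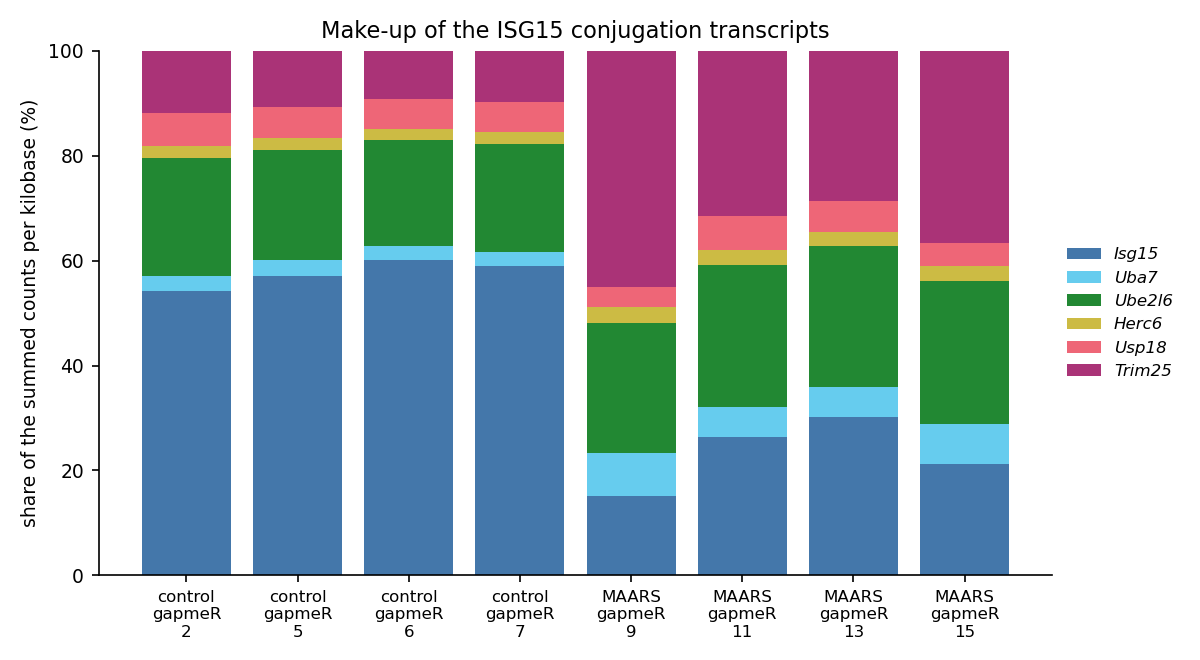
Share of each gene in the summed counts per kilobase of merged exons of the 6 genes, in percent, for each library. Isg15 (dark blue) is the largest part of all control libraries, at 54.2% or more, and at most 30.3% of the MAARS gapmeR libraries, where Trim25 (purple) takes 28.7% or more.

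Values also varied between libraries of 1 group. With control gapmeR, 6 of 6 were highest in replicate 6 and lowest in replicate 2, an order found for 13.2% of all tested genes. With MAARS gapmeR, 6 of 6 were highest in replicate 13, as were 24.7% of all tested genes. Isg15, Ube2l6, Herc6 and Usp18 were lowest in replicate 9, Uba7 in replicate 11 and Trim25 in replicate 15. Uba7 went against Isg15 in replicates 11 and 15, with deviations from the group mean of -0.09 and 0.04 log2 units where Isg15 had 0.38 and -0.24. The mean deviation of the 6 genes from the group mean, in log2 CPM, was -0.43, 0.19, 0.39 and -0.15 in MAARS gapmeR replicates 9, 11, 13 and 15, and -0.24, -0.03, 0.19 and 0.08 in control replicates 2, 5, 6 and 7. The libraries and the level of other transcripts are shared by all 6 genes, so these are not 6 separate observations.

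Within the MAARS gapmeR group, the highest library exceeded the lowest by 3.38-fold for Isg15, 2.66-fold for Usp18, 1.82-fold for Ube2l6, 1.47-fold for Herc6, 1.17-fold for Uba7 and 1.13-fold for Trim25. The order of the 6 genes by this ratio was the same as that by the size of their log2 fold change. In the control group the same ratio was 1.63 for Isg15 and 1.14 to 1.40 for the other genes. The coefficient of variation of Isg15 was 20.4% with control gapmeR and 48.6% with MAARS gapmeR, and that of Usp18 was 11.9% and 43.8%. Counting error alone would give 1.42% and 4.30% for Isg15 and 2.32% and 4.77% for Usp18, and the median gene had 8.29% and 7.65%. Trim25 stayed below that median in both groups (5.65% and 5.13%).

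**Figure D3:**
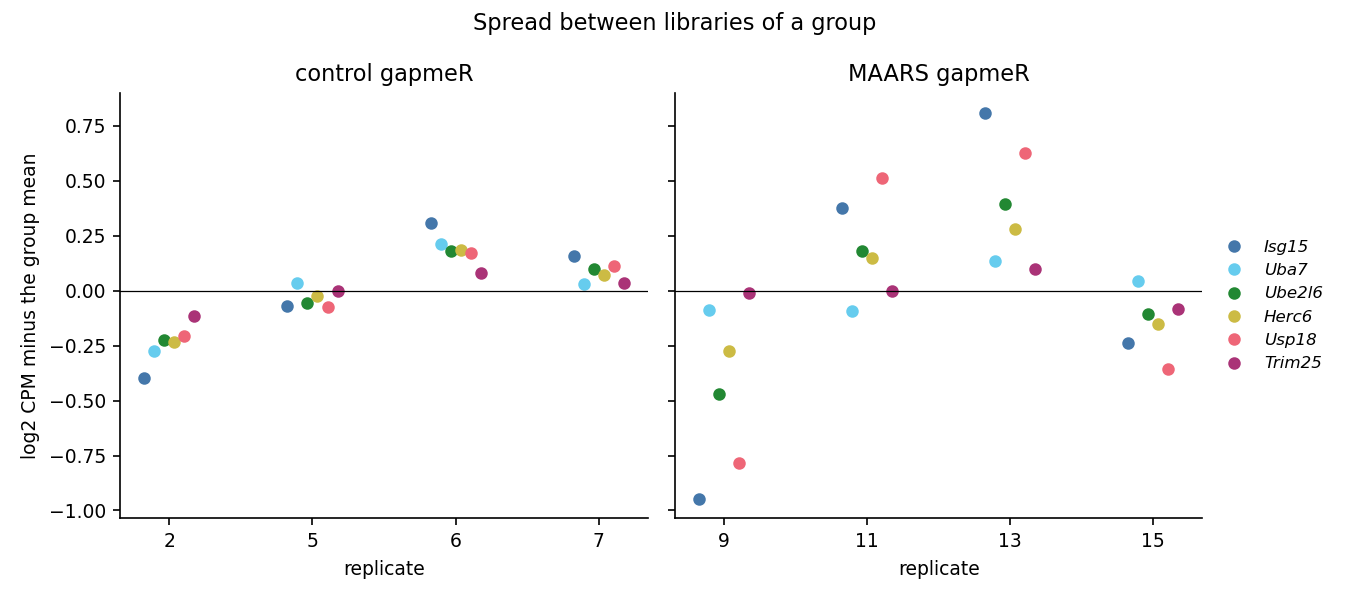
Log2 CPM of each gene minus its mean over the 4 libraries of the group, by replicate, for control gapmeR (left) and MAARS gapmeR (right). Points of Isg15 and Usp18 lie farthest from 0 in the MAARS gapmeR group, low in replicates 9 and 15 and high in replicates 11 and 13, while Trim25 stays near 0.

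For each gene the tested genes with the nearest profile were found, by the root mean square difference between log2 CPM profiles over the 8 libraries, each centred on its own control mean. Isg15 was nearest to Ifit3 (difference 0.07 log2 units), Ifit3b (0.09) and Phf11a (0.10). The Ifit genes encode interferon-induced proteins that bind viral RNA. Ube2l6 was nearest to Irgm1 (0.08), Tap1 (0.09) and Herc6 (0.09), and Herc6 to H2-T23 (0.04), Tap1 (0.06) and Ddx58 (0.07). Tap1, a peptide transporter of antigen presentation, stood in both lists. Usp18 had no equally near profile, its nearest being Gm4951 (0.13), Ifitm3 (0.14) and Ifi211 (0.14). Uba7 was nearest to Stard3 (0.06), Ier5 (0.06) and Ly86 (0.06), and Trim25 to Birc2 (0.04), Dyrk2 (0.04) and Ncoa7 (0.04). This measure includes the difference between the groups, so it is a description of likeness over these 8 libraries.

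The other ubiquitin-like systems were then examined to see where the ISG15 cascade differed from its relatives. Among 13 tested ubiquitin-like modifiers, 7 were called lower and 1 higher (24.0% and 21.3% of all tested genes). The median log2 fold change was -0.16. Ubb, a polyubiquitin gene, was 862 ± 35.6 and 689 ± 22.9 CPM, a log2 fold change of -0.32 (SE 0.05, edgeR adjusted p = 0.000279), and Ufm1, another ubiquitin-like modifier, was -0.33 (edgeR adjusted p = 7.53e-05). Isg15 had -3.44.

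Of the 8 other E1 enzymes, 1 was called lower and 2 higher (24.0% and 21.3% of all tested genes). The median was -0.02. Uba1, the main ubiquitin E1, was 364 ± 14.0 and 367 ± 8.15 CPM, a log2 fold change of 0.01 (SE 0.04, edgeR adjusted p = 0.878), where Uba7 had -0.96. Uba6 was -0.14 (edgeR adjusted p = 0.138) and Nae1, a subunit of the NEDD8 E1, was -0.28 (edgeR adjusted p = 0.00291). Atg7, the autophagy E1, was higher at 0.41 (edgeR adjusted p = 8.21e-05).

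Of 31 other E2 enzymes, 9 were called lower and 5 higher (24.0% and 21.3% of all tested genes). The median was -0.05. Ube2l3 (UbcH7), the closest paralog of Ube2l6, was 220 ± 8.79 and 198 ± 2.93 CPM, a log2 fold change of -0.15 (SE 0.04, edgeR adjusted p = 0.0140), and this call was lost with upper-quartile factors and with library size alone. For Ube2l6 the log2 fold change was -1.85. Ube2c, the E2 of the anaphase-promoting complex, had the highest value, 0.99 (edgeR adjusted p = 0.000946), and Cdc34 and Ube2e1 were at -0.41 and -0.39 (edgeR adjusted p = 0.000236 and 0.000218).

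Of 19 other ligases, made up of HECT ligases and Arih1, 2 were called lower and 7 higher. Over all tested genes the shares were 24.0% and 21.3%. The median of the list was 0.03. Arih1 has also been linked to ISG15 transfer, and the list holds no TRIM ligase. Of the counterparts of Herc6, the HERC relatives and the RBR ligase gene Arih1, Herc4 was higher at 0.43 (edgeR adjusted p = 0.000781), Herc2 was -0.24 (edgeR adjusted p = 0.0278), and Herc1 (-0.19), Herc3 (-0.07) and Arih1 (0.02) were not called (edgeR adjusted p = 0.154, 0.490 and 0.723). The lower call of Herc2 was lost in 5 of 15 alternatives and that of Huwe1 in 9 of 15, upper-quartile factors and library size alone among them in both cases. Wwp1 (0.51), Ube3b (0.40) and Hectd3 (0.36) were called higher. All of these values were above that of Herc6 (-1.81).

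Of 43 tested USP proteases other than Usp18, 13 were called lower and 9 higher (24.0% and 21.3% of all tested genes). The median was -0.05. Usp25 had the lowest value, -0.59 (SE 0.06, edgeR adjusted p = 2.19e-05), and Usp15 (-0.47) and Cyld (-0.25), which both cut ubiquitin chains in immune signalling, were also called lower. Usp48 (0.48), Usp33 (0.43) and Usp32 (0.27) were called higher. Apart from Cyld, the list held genes named Usp. Among its lower calls was Usp6nl (-0.28), known as a regulator of Rab proteins and not as a protease. The value for Usp18 was -2.32.

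**Figure D4:**
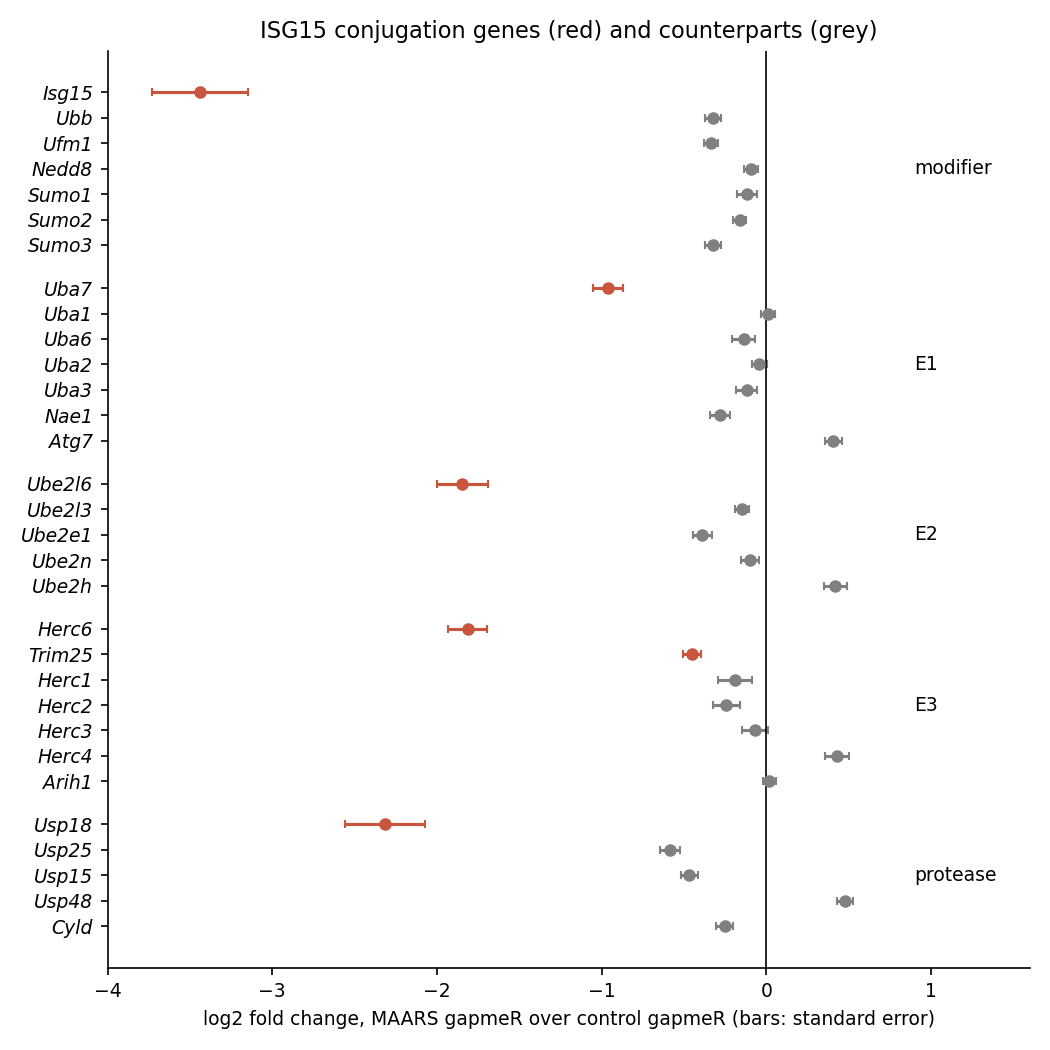
Log2 fold change, MAARS gapmeR over control gapmeR, with its standard error as a bar, for the 6 genes (red) and counterparts of the same role (grey). None of the grey ligases is of the TRIM family, so no close relative of Trim25 is drawn. Isg15, Uba7, Ube2l6, Herc6 and Usp18 lie below all the counterparts drawn, the lowest of which is Usp25 at -0.59. Trim25 at -0.45 lies above Usp25 and Usp15. The red genes were chosen with this contrast known, so their place below the grey ones is no test.

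The receptor pathway that USP18 restrains was examined next. Of its 9 genes, 5 were called lower and 1 higher (24.0% and 21.3% of all tested genes), with a median of -0.12. Among its transcription factors, Stat2 fell from 405 ± 50.9 to 142 ± 30.6 CPM (-1.52, edgeR adjusted p = 1.12e-05) and Irf9 from 122 ± 6.00 to 74.7 ± 13.3 CPM (-0.71, edgeR adjusted p = 0.00024). Socs1, another inhibitor of this pathway, was at 4.49 and 1.71 CPM (-1.39, edgeR adjusted p = 0.000515). Of the receptor subunits, Ifnar1 was higher (0.29, edgeR adjusted p = 0.000649) and Ifnar2, the partner of USP18, was -0.12 (edgeR adjusted p = 0.0752). The kinases were near 0, with Jak1 at -0.12 (edgeR adjusted p = 0.04999, lost in 10 of 15 alternatives) and Tyk2 at -0.09 (edgeR adjusted p = 0.287).

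Transcripts of the ligands were hardly counted. Of 21 interferon genes, of types I, II and III, 16 were at 0 in all 8 libraries, the other 5 had at most 2 counts in a library, and the summed count was 0 to 4 per library. A count of 0 allows up to 3 counts, 0.122 to 0.156 CPM in these libraries, and covers counting error only. A difference between the groups in these transcripts was not detectable at this depth, and interferon protein was not measured.

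Of 7 partners of TRIM25 in RNA sensing, 3 were called lower and 2 higher (24.0% and 21.3% of all tested genes). Ddx58, which encodes RIG-I, was 273 ± 34.7 and 81.5 ± 18.1 CPM, a log2 fold change of -1.74 (SE 0.14, edgeR adjusted p = 6.89e-06), where Trim25 had -0.45. Zc3hav1, the antiviral RNA-binding protein ZAP, was -0.40 (edgeR adjusted p = 7.19e-05), and its cofactor Khnyn was 0.25 (edgeR adjusted p = 0.00557). Mavs, the adaptor below RIG-I, was -0.15 (edgeR adjusted p = 0.0474, lost in 11 of 15 alternatives), Irf3 was 0.16 (edgeR adjusted p = 0.0334, lost in 8 of 15), and Rnf135 (-0.22) and the kinase Tbk1 (-0.02) were not called (edgeR adjusted p = 0.0657 and 0.743).

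Of 13 proteins reported as ISG15 substrates, the genes of 6 were called lower and of 4 higher. Over all tested genes the shares were 24.0% and 21.3%. The median of the list was -0.11. Mx1, Ddx58 and Eif2ak2, all known as interferon-inducible, were among the 4 lowest values, with Mx1 at 290 ± 92.5 and 29.7 ± 11.6 CPM (-3.29, edgeR adjusted p = 8.27e-06) and Eif2ak2, the kinase PKR, at -0.99 (edgeR adjusted p = 1.03e-05). Plcg1 (0.73) and Mapk3 (0.42) were higher (edgeR adjusted p = 1.49e-05 and 0.0011). Free ISG15 outside the cell acts through the integrin LFA-1, and its chains were at -0.26 for Itgal (edgeR adjusted p = 0.0266, lost in 6 of 15 alternatives) and 0.09 for Itgb2 (edgeR adjusted p = 0.138, called higher with upper-quartile factors and library size alone).

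**Figure D5:**
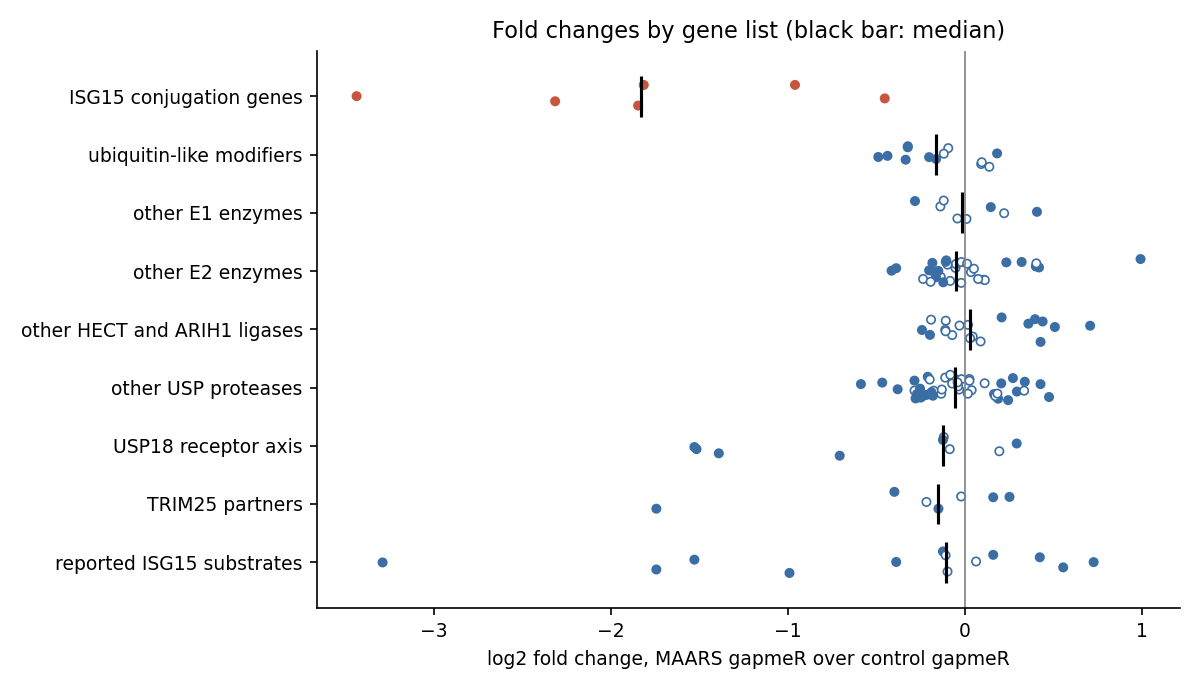
Log2 fold change of every tested gene in the 6 ISG15 conjugation genes and in 8 related lists, with the list median as a black bar. Filled blue points passed edgeR's adjusted p under 0.05 and open points did not, while red points were chosen with this contrast known and carry no test. The ISG15 genes have a median of -1.83, and the medians of the other lists lie between -0.16 and 0.03.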

How the data were processed

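Ribodepleted RNA of 8 BMDM libraries was sequenced as paired reads of 100 bases. According to the submitters' processing notes and the study's methods, the authors trimmed reads (Trimmomatic 0.36), aligned them with STAR 2.5.2b and counted them per gene with featureCounts (Subread 1.5.2). The deposited values are raw counts, not normalized. Strand setting and treatment of multi-mapping reads are not given in the sources used here.

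Samples were grouped by their labels. Counts were analysed with edgeR 4.0.16 (R 4.3.3) on genes kept by filterByExpr (minimum count 10, minimum total count 15), with TMM factors, glmQLFit and glmQLFTest, and Benjamini-Hochberg adjustment over all 13051 genes. The study's methods used DESeq2, which was run here as an alternative. The script was tested on simulated data. Gene models were those of GENCODE M21 (GRCm38), which held 99.47% of the genes. Similar transcripts were searched with blastn (at least 85% identity over 100 bases). Replicates of a group differed by a chi-square of 4.24 to 15.1 per gene, so no libraries were the same within sampling noise.

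The 6 genes and the gene lists were chosen with earlier results of these data known. Of lists of up to 9 genes any tested gene could be named; of longer lists, the 3 called genes of smallest p among those higher and among those lower and the direct counterparts of the 6 genes; and for each of the 6 genes the 3 nearest profiles. Alternatives were RLE, upper-quartile or no normalization factors, DESeq2 1.42.0, limma-voom (limma 3.58.1), leaving out the filter, a filter at a mean count of 10, each library left out, and longest-transcript lengths. Some genes that this rule names are not reported here.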

Additional observations from a re-analysis of the deposited data

How the results depend on the processing

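The 6 genes carry no test, and their values under the alternatives are a description. Leaving out 1 library gave log2 fold changes of -3.75 to -3.21 for Isg15, -2.53 to -2.12 for Usp18, -1.99 to -1.72 for Ube2l6, -1.91 to -1.74 for Herc6, -1.04 to -0.89 for Uba7 and -0.49 to -0.42 for Trim25. Counts in the related lists moved more, and their cause was not tested. With upper-quartile factors, 4 ubiquitin-like modifiers were called higher, 4 other E2 enzymes lower and 8 higher, 0 HECT ligases lower, and 0 LFA-1 chains lower and 1 higher. With library size alone, these counts were 4 modifiers higher, 4 E2 enzymes lower, 0 HECT ligases lower, 8 USP proteases lower, and 0 LFA-1 chains lower and 1 higher. With RLE factors 1 HECT ligase was lower, with DESeq2 1 other E1 enzyme was higher, and with no filter 1 TRIM25 partner was higher. Leaving out 1 library gave 1 to 3 modifiers higher, 1 to 2 other E1 enzymes lower and 1 to 2 higher, 0 to 3 HECT ligases lower, 5 to 9 USP proteases higher (5 without control replicate 7), 1 to 2 TRIM25 partners higher, 2 to 3 substrate genes higher (against 4 with all libraries) and 0 to 1 LFA-1 chains lower. Without MAARS gapmeR replicate 9, Herc1 was called lower (edgeR adjusted p = 0.0115), and without control replicate 2 so were Ifnar2 (0.0167), Tyk2 (0.0491) and Rnf135 (0.0144, all edgeR adjusted p). No paired analysis was possible because the groups share no replicate numbers. Genes with few counts were not tested, among them all interferon genes, all lymphocyte markers, 5 of 6 dendritic cell markers and 3 USP genes. With no filter, 1 dendritic, 2 neutrophil and 1 stromal marker were called lower and 1 stromal marker higher.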
